A study of Rattus norvegicus with 10 samples.

Results

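Transcripts of 10 genes of the neuronal cytoskeleton were followed in the supraoptic nucleus after knock-down of Opn3. The genes were chosen by name, with earlier results of these data known. They were the neurofilament chains Nefl, Nefm and Nefh and the neuronal intermediate filament genes Ina and Prph. The others were the microtubule genes Tubb3, Stmn2, Map2 and Mapt, and the neuronal ubiquitin hydrolase Uchl1. Each name stood in 1 row of the deposited table of 32623 genes, and all 10 were among the 15597 genes with a mean of at least 10 normalized counts, which were tested. The rats were male Sprague-Dawley animals of 250 to 300 g, and their age was not given in the sources used here. Every rat had received adeno-associated virus in both nuclei, with an shRNA against Opn3 on one side (shOpn3, 5 samples) and a non-targeting shRNA on the other (shControl, 5 samples), and the nuclei were punched out 2 weeks later. Both groups thus share the surgery and the viral vector. The promoter of the hairpin and the cell types that took up the virus were not given in the sources used here.

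Neurofilaments are the intermediate filaments of mature axons. The light chain (Nefl) forms the core of the polymer, and the medium and heavy chains (Nefm, Nefh) join it with long tails that carry many phosphorylation sites, while alpha-internexin (Ina) and peripherin (Prph) can co-assemble with them. Microtubules supply the tracks for axonal transport: Tubb3 is a beta-tubulin made mainly in neurons, Map2 binds microtubules in dendrites, Mapt (tau) binds them mainly in axons, and Stmn2 (stathmin 2) binds tubulin and acts in axon growth and repair. The magnocellular neurons of the supraoptic nucleus send long axons to the posterior pituitary. Which cells of the punched tissue held these transcripts was not tested.

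Of the 10 genes, 4 fell in shOpn3 at a limma adjusted p under 0.05 (Nefh, Prph, Mapt and Uchl1) and 0 rose, where 18.8% of all genes tested were called, 10.4% higher and 8.48% lower. The median log2 fold change of the 10 genes was -0.38, and that of all genes tested was -0.02. The other 6 genes did not pass the test, and among them Nefl (0.38) and Map2 (0.07) had a log2 fold change above 0. Nefl was called higher in DESeq2, with quantile normalization and in voom with sample weights. With the replicate numbers as blocks, 5 of the 10 were called, all lower, and the added gene was Tubb3. Of all genes tested, 30.3% were called in that fit, 15.1% higher and 15.2% lower. Without both samples of replicate number 3 only Nefh and Prph were called.

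Sequences upstream of 2 members that fell are shown beside that of a member not called. These genes did not move alike. Their log2 fold changes were -1.89 (Prph), -0.49 (Uchl1) and -0.38 (Ina, not called), so Uchl1 stood nearer to Ina than to Prph. RefSeq promoter entries of assembly GRCr8 were found for 5 of the 10 genes (Ina, Prph, Tubb3, Map2 and Uchl1), and not for Nefl, Nefm, Nefh, Stmn2 or Mapt. The 250 bases before the annotated start are given for Prph (chr7:132097039-132097288, plus strand) and Uchl1 (chr14:41849418-41849667, minus strand), which fell, and for Ina (chr1:255837879-255838128, plus strand), which was not called. Each runs 5′ to 3′ on the strand of the gene, and capitals mark the letters TATAAA or, on the opposite strand, TTTATA.
Prph: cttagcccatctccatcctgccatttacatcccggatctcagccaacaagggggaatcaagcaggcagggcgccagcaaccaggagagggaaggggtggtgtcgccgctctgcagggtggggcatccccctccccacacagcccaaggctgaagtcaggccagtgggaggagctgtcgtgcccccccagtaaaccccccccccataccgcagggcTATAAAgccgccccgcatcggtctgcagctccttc
Uchl1: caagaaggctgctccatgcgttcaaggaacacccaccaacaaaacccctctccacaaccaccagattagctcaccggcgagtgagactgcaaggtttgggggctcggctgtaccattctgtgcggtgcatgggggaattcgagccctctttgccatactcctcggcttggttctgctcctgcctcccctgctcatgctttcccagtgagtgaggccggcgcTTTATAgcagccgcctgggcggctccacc
Ina: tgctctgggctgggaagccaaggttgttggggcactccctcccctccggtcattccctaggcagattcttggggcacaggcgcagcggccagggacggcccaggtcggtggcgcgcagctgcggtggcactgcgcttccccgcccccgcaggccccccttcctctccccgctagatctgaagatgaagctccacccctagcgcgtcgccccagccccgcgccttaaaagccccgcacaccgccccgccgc
The letters TATAAA, searched on both strands, stood in the Prph sequence 35 to 30 bases before the start and, on the opposite strand, in the Uchl1 sequence 29 to 24 bases before it. They were in 12.9% of the 33469 RefSeq sequences of this length. Ina held no match. The letters GGGCGG, also searched on both strands, were in all 3 sequences and in 30.5% of all sequences, and they did not overlap the TATAAA match. G and C made up 64.4% of the bases for Prph, 59.6% for Uchl1 and 70.8% for Ina, where the median of all sequences was 51.2%. Of the members not printed, Tubb3 held 2 matches to GGGCGG, none to TATAAA and 68.0% G and C, and Map2 held neither and 32.0%. These matches describe letters only.

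Opn3, the target, was left at 26.7% of the control mean and was lower in 5 of 5 same-numbered pairs (log2 fold change -1.82, limma adjusted p = 0.00226), with overlapping groups, since shControl replicate 5 had 261 and shOpn3 replicate 1 had 290 normalized counts. Recovered reads per sample ranged from 33158341 to 39958578, and size factors from 0.942 to 1.07. Every member but Prph rested on at least 1728 reads in each sample. The lowest Prph value was 42 reads, with an exact 95% Poisson interval of 30.3 to 56.8 reads that covers counting error only.

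The light chain Nefl (ENSRNOG00000013658) had 11020.3, 9875, 10828, 10614 and 9284 normalized counts in shControl replicates 1 to 5 and 12653, 18431, 13676, 9804 and 13776 in shOpn3 replicates 1 to 5. It was higher in 4 of 5 pairs and lower in the pair with number 4, and the groups overlapped through shOpn3 replicate 4. The means were 10324 ± 726 and 13668 ± 3109 (SD, 5 samples each). The log2 difference of 0.38, whose standard error (SE) was 0.14, did not pass the test (limma adjusted p = 0.0723, or 0.0594 with the replicate block). The coefficient of variation was 7.03% in shControl and 22.7% in shOpn3, a difference that was not tested. Without shOpn3 replicate 4 the log2 difference was 0.49 and was called (limma adjusted p = 0.0114). Without both samples of number 4 it was 0.50 (limma adjusted p = 0.0247). Without shOpn3 replicate 2 it was 0.26 (0.125), and without both samples of number 2 it was 0.25 (0.224). The authors' deposited table listed Nefl as higher, with a log2 fold change of 0.40 and a DESeq2 adjusted p of 0.0317. The DESeq2 fit run here gave the same values for Nefl, so it is not a separate result. With all samples kept, Nefl was also called higher with quantile normalization (0.49, limma adjusted p = 0.0156). The same held in voom with sample weights (0.39, limma adjusted p = 0.0101).

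The medium chain Nefm (ENSRNOG00000013916) had 7569, 8664, 8773, 8127 and 5692 normalized counts in shControl and 6134, 11415, 7222, 4834 and 7187 in shOpn3, in the order of the replicate numbers. The groups overlapped, with 2 pairs higher and 3 lower. The log2 fold change was -0.12 (95% interval -0.55 to 0.31; limma adjusted p = 0.718). In the RefSeq order of GRCr8, Nefl and Nefm are neighbouring protein-coding genes.

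The heavy chain Nefh (ENSRNOG00000008716) had 4977, 3862, 4126, 4049 and 4211 normalized counts in shControl and 2423, 3177, 1615, 1699 and 2994 in shOpn3. Every shOpn3 sample lay below every shControl sample, and shOpn3 replicates 3 and 4 were the lowest. The mean fell from 4245 ± 429 to 2382 ± 718 (SD, n = 5 each), to 56.1% of the control. The log2 difference was -0.88 ± 0.18 (SE; adjusted p = 0.00504, limma). In the 5 pairs shOpn3 held 48.7%, 82.3%, 39.1%, 42.0% and 71.1% of the same-numbered control. Nefh kept its call in each of the 27 alternative fits, where its log2 difference lay between -1.08 and -0.76.

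**Figure D1:**
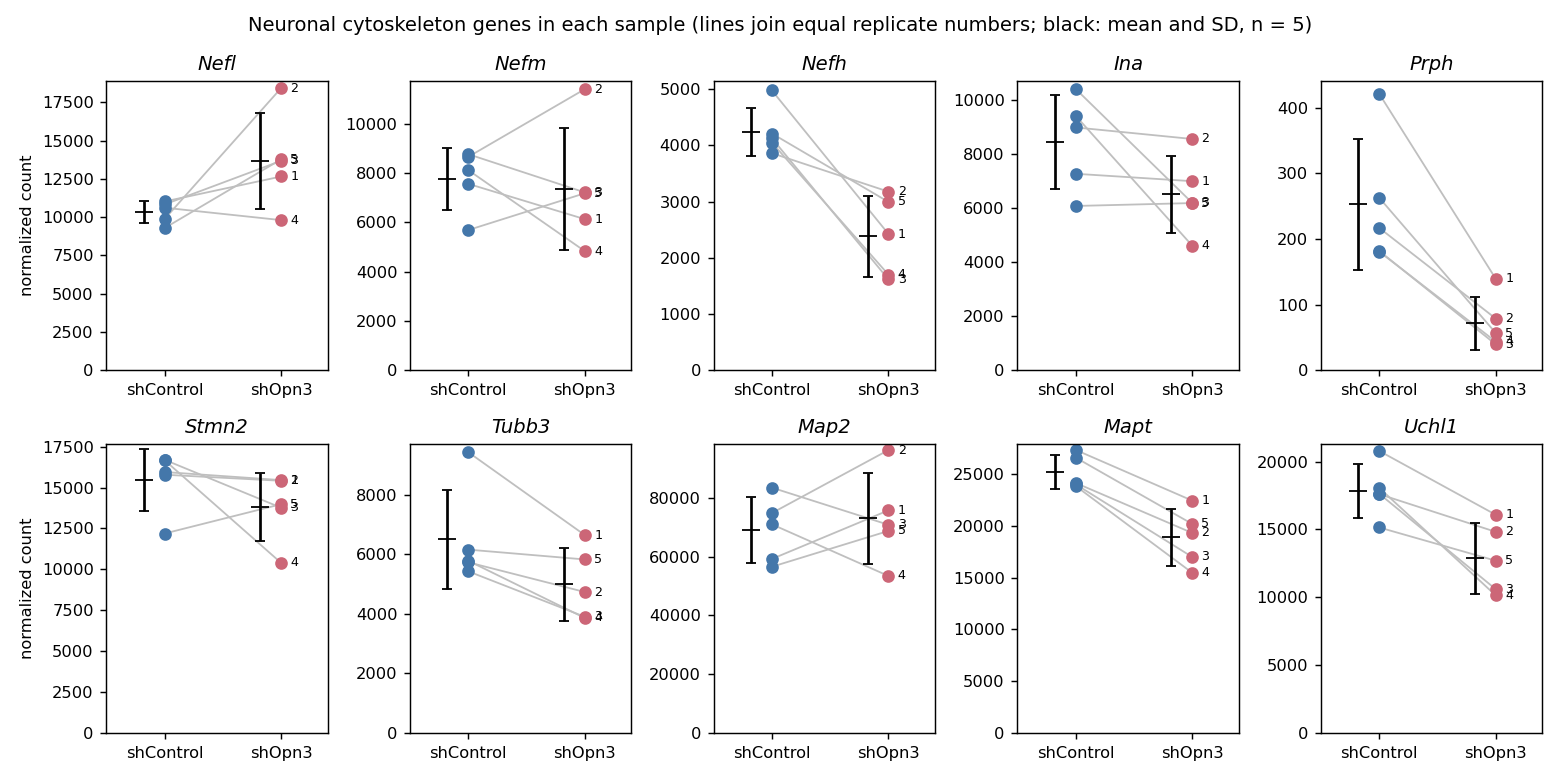
Normalized counts of the 10 genes (y axis, from 0) in shControl and shOpn3 (x axis); points are samples, lines join equal replicate numbers, and black marks give the mean and SD (n = 5). Nefh, Prph and Mapt show no overlap between the groups, while Nefl lies higher in shOpn3 in 4 of 5 pairs.

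Peripherin (Prph, ENSRNOG00000052880), a filament gene best known from peripheral neurons and from a few central ones, had the largest difference of the 10. It had 421, 217, 182, 181 and 263 normalized counts in shControl and 139, 78.6, 39.2, 43.5 and 56.5 in shOpn3. The groups did not overlap, and the samples with replicate number 1 were the highest on both sides. The mean fell from 253 ± 99.95 to 71.4 ± 40.8 (SD, n = 5 each), to 28.3% of the control. The log2 difference was -1.89 ± 0.34 (SE; adjusted p = 0.00241, limma). The pairs ranged from 21.5% to 36.3% of control, and the replicate block lowered the SE to 0.15 (limma adjusted p = 0.000348). Markers of peripheral sensory or autonomic neurons were nearly absent: Mrgprd and Dbh had at most 1.03 and 5.10 normalized counts, and Scn10a at most 24.0.

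Alpha-internexin (Ina, ENSRNOG00000020248) had 7262, 8975, 10399.8, 9408 and 6071 normalized counts in shControl and 6987, 8548, 6188, 4607 and 6178 in shOpn3. The groups overlapped, and the pairs with numbers 3 and 4 were the lowest, at 59.5% and 49.0% of control, where the other 3 ranged from 95.2% to 102%. The log2 fold change of -0.38 (SE 0.17) did not pass the test (limma adjusted p = 0.153), and it was -0.21 without both samples of number 4. In voom with sample weights it was -0.53 and was called (limma adjusted p = 0.00509).

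The 5 intermediate filament genes were next set against one another within each sample, where library scaling cancels. A ratio here shows how the groups differ, not how the levels of 2 genes compare, since the values are not per length. Ratios were taken on the log2(normalized count + 1) scale and compared by exact two-sided permutation tests, with p-values adjusted over 6 ratios. The smallest p that 5 against 5 samples allow is 0.00794, and over 5 pairs a sign-flip test cannot go below 0.0625.

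The Nefh to Nefl ratio was 0.452, 0.391, 0.381, 0.381 and 0.454 in shControl and 0.192, 0.172, 0.118, 0.173 and 0.217 in shOpn3. The groups did not overlap, with means of 0.412 ± 0.0375 and 0.175 ± 0.0364 (SD, n = 5 each). The log2 difference was -1.26 (SE 0.16; exact permutation p = 0.00794, adjusted p = 0.0159).

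The Nefm to Nefl ratio was lower in 5 of 5 pairs, with means of 0.751 ± 0.103 and 0.529 ± 0.0535 (SD, n = 5 each). The groups touched, since shOpn3 replicate 2 (0.619) lay above shControl replicate 5 (0.613). The log2 difference was -0.50 (SE 0.11; exact permutation p = 0.0159, adjusted p = 0.0238). The level of Nefm itself did not pass the test.

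The Ina to Nefl ratio fell from 0.814 ± 0.146 to 0.477 ± 0.0427 and the Prph to Nefl ratio from 0.0245 ± 0.00900 to 0.00541 ± 0.00323 (SD, n = 5 each; exact permutation p = 0.00794 and adjusted p = 0.0159 for each). For both ratios the groups did not overlap and 5 of 5 pairs were lower. The 5 shOpn3 samples lay close together for Ina, from 0.449 to 0.552, although the level of Ina itself overlapped between the groups. All 4 ratios share Nefl as denominator, which was higher in 4 of 5 pairs, so they are not separate results. Nefl, Nefm and Ina did not pass the limma test on their own. With 4 pairs and the adjustment over 6 ratios, each of these 4 ratios to Nefl missed the threshold without replicate number 1 and without number 4 (exact permutation, adjusted p from 0.0571 to 0.0857), and Nefm to Nefl also without number 3.

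**Figure D2:**
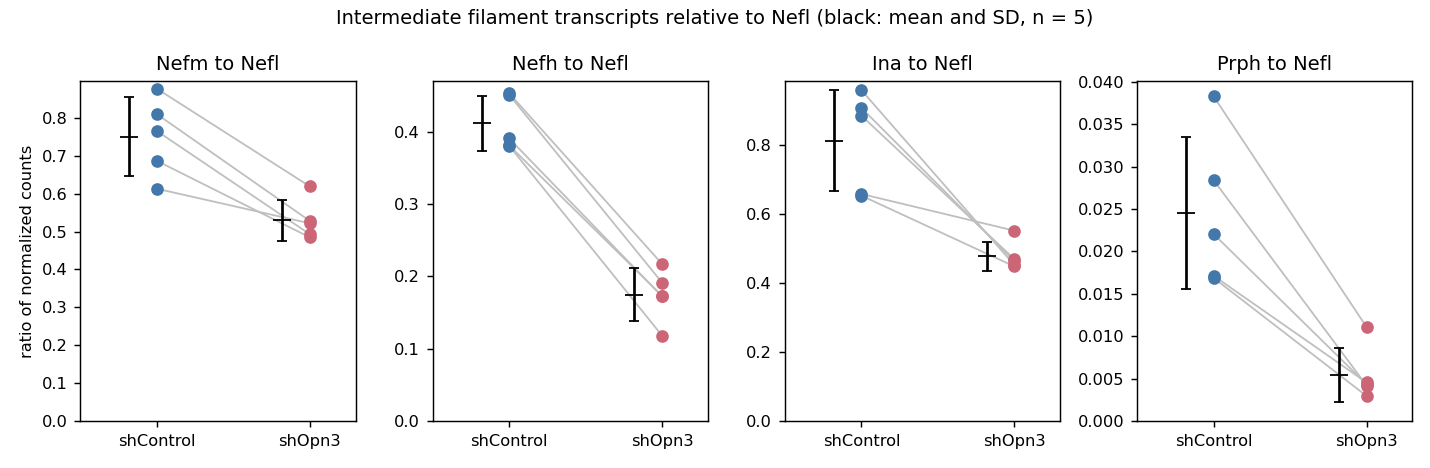
Ratio of the normalized counts of Nefm, Nefh, Ina and Prph to those of Nefl (y axis, from 0) in each sample of shControl and shOpn3; lines join equal replicate numbers, black marks are mean and SD (n = 5). All 4 ratios are lower in shOpn3 in 5 of 5 pairs, and only Nefm to Nefl overlaps between the groups. The 4 ratios share Nefl as denominator and are not separate results.

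Among the microtubule genes, Mapt was called lower and Tubb3, Stmn2 and Map2 did not pass the test. Mapt (ENSRNOG00000005133) had 27331, 24143, 24012, 23851 and 26591 normalized counts in shControl and 22433, 19311, 16992, 15467 and 20181 in shOpn3. The groups did not overlap, and Mapt varied least of the 10 genes in shControl, with a coefficient of variation of 6.53%. Its mean fell from 25186 ± 1645 to 18877 ± 2725 (SD, n = 5 each). The log2 difference was -0.43 ± 0.10 (SE; adjusted p = 0.0120, limma). The pairs ranged from 64.9% to 82.1% of control. Without both samples of number 3 the call was lost (log2 fold change -0.41, limma adjusted p = 0.0586). Nefh, Prph and Mapt were the 3 of 10 genes without overlap between the groups, and all 3 were lower. Of all genes tested, 15.3% had no overlap, 8.03% higher and 7.23% lower.

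Map2 (ENSRNOG00000011841) had 59187, 74802, 83441, 70967 and 56531 normalized counts in shControl and 75733, 96246, 70812, 53394 and 68725 in shOpn3. It was higher in pairs 1, 2 and 5 and lower in pairs 3 and 4, with a log2 fold change of 0.07 (95% interval -0.27 to 0.41; limma adjusted p = 0.799). The sign turned in 5 of the 27 alternative fits. The Mapt to Map2 ratio was lower in 5 of 5 pairs, with means of 0.376 ± 0.0844 and, in shOpn3, 0.264 ± 0.0423 (SD, n = 5 each; exact permutation p = 0.0317, adjusted p = 0.0381). That call was lost without shControl replicate 1 or 5 or shOpn3 replicate 2 or 3 (exact permutation, adjusted p from 0.0571 to 0.0857), and without both samples of any number but 3 (adjusted p from 0.103 to 0.137).

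Tubb3 (ENSRNOG00000017209) had 9440.1, 5736, 5433, 5788 and 6163 normalized counts in shControl and 6651, 4737, 3903, 3865 and 5832 in shOpn3. shControl replicate 1 stood far above the others, and the groups overlapped. Tubb3 was nevertheless lower in 5 of 5 pairs, at 66.8% to 94.6% of control. The log2 fold change of -0.38 (SE 0.18) did not pass the test (limma adjusted p = 0.164), and it passed with the replicate block, where the SE was 0.08 (limma adjusted p = 0.00850). Without shControl replicate 1 and without the block it was -0.24 (limma adjusted p = 0.320). In all, 5 of the 10 genes (Nefh, Prph, Tubb3, Mapt and Uchl1) were lower in every pair and 0 were higher in every pair. Across all genes tested, 39.4% had all 5 pairs in 1 direction, 20.7% lower and 18.7% higher.

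Stmn2 (ENSRNOG00000011705) had 15786, 15951, 16699, 16673 and 12191 normalized counts in shControl and 15415, 15456, 13766, 10391 and 13984 in shOpn3. The groups overlapped, and the pair with number 4 was the lowest, at 62.3% of control. The log2 fold change was -0.17 (95% interval -0.43 to 0.10; limma adjusted p = 0.381). It was -0.07 without shOpn3 replicate 4, -0.04 without both samples of number 4 and -0.26 without both of number 5. The Stmn2 to Tubb3 ratio averaged 2.48 ± 0.614 in the control group against 2.84 ± 0.534 after knock-down (SD, n = 5 each; exact permutation p = 0.333, adjusted p = 0.333).

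Uchl1 (ENSRNOG00000002343), an abundant deubiquitinating enzyme of neurons that keeps up the pool of free ubiquitin, had 20789, 17605, 17632, 18063 and 15147 normalized counts in shControl and 16082, 14822, 10591, 10132 and 12696 in shOpn3. It was lower in 5 of 5 pairs, and shOpn3 replicate 1 lay above shControl replicate 5. The mean fell from 17847 ± 2006 to 12865 ± 2591 (SD, n = 5 each). The log2 difference was -0.49 ± 0.13 (SE; adjusted p = 0.0229, limma). The call was lost without shControl replicate 1, shOpn3 replicate 3 or shOpn3 replicate 4 (limma adjusted p = 0.0523, 0.0666 and 0.0513), without both samples of number 3 or 4 (0.104 and 0.0975), and with quantile normalization (0.0513).

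**Figure D3:**
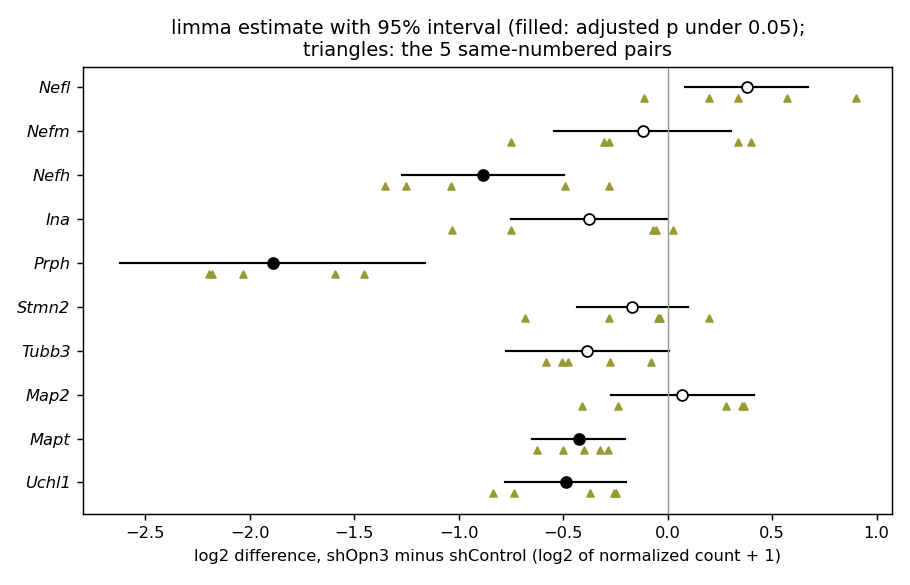
Difference between shOpn3 and shControl on the log2(normalized count + 1) scale (x axis) for the 10 genes (y axis); circles are limma estimates with 95% intervals, filled where the adjusted p is under 0.05, and triangles are the 5 same-numbered pairs. Nefl lies to the right of 0 at 0.38, Prph farthest to the left at -1.89, and all 5 triangles of Nefh, Prph, Tubb3, Mapt and Uchl1 are left of 0.

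The samples also varied together within a group. In shOpn3, replicate 4 was the lowest for 8 of the 10 genes (all but Nefh and Prph), and replicate 2 was the highest for 6 (Nefl, Nefm, Nefh, Ina, Stmn2 and Map2). In shControl, replicate 5 was the lowest for 6 genes and replicate 1 the highest for 6. The summed level of 12 pan-neuronal genes outside the cytoskeleton was lowest in shOpn3 replicate 4 (94554 normalized counts) and shControl replicate 5 (90485) and highest in shOpn3 replicate 2 (159789). In shControl it was highest in replicate 3 (123840), and replicate 1 (114994) was not at its top. In bulk tissue, fewer cells of a type and less RNA per cell cannot be told apart.

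The ranges of that sum overlapped between the groups. It ranged from 90485 to 123840 normalized counts in shControl and from 94554 to 159789 in shOpn3. The median log2 fold change of the list was 0.11, and 3 of 12 genes were called, 1 higher and 2 lower. With the block 2 were higher and 3 lower. Without shOpn3 replicate 4 the count was 5, with 4 higher and 1 lower, and without shOpn3 replicate 3 or both samples of number 2 it was 1. Rbfox3, which encodes the neuronal nuclear antigen NeuN, rose by 0.62 (SE 0.14), and Elavl4, an RNA-binding protein gene of neurons, changed by -0.57 (SE 0.17; limma adjusted p = 0.00902 and 0.0338). Rbfox3 lost its call without both samples of number 2 (0.0566), and Elavl4 lost it without shControl replicate 2, 3 or 4, shOpn3 replicate 3, 4 or 5, or both samples of number 3 or 4 (0.0707 to 0.169). When all libraries were scaled to this sum, an alternative chosen after the data had been seen, the median of all genes tested shifted to -0.21, and 1672 genes were called (511 higher, 1161 lower) in place of 2940 (1618 higher, 1322 lower). That shift is common to all genes, and the p-values of the fit test the unshifted values. Nefh was at -1.08, Prph at -2.08, Mapt at -0.62 and Uchl1 at -0.68 in this fit, and all 4 kept their call (limma adjusted p from 0.00113 to 0.0116). Ina at -0.57 and Stmn2 at -0.36 were also called (0.00817 and 0.0388), but against the shifted median they stood at -0.36 and -0.15, which was not tested. Vash2, Gfap and Rbfox3, which rose with the deposited scaling, were at 0.42, 0.91 and 0.43 and were not called (0.131, 0.0792 and 0.122), under the same shift. Nefl was at 0.18 (0.301), and at 0.40 against the shifted median. Map2 was at -0.12 in that fit and at 0.09 against the shifted median.

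Markers of other cell types moved with the groups, and their part in the changes of the 10 genes was not tested. The 10 oligodendrocyte markers were all lower, and their sum was 770445 to 1306850 normalized counts in shControl and 266022 to 497478 in shOpn3. In shControl that sum was highest in replicate 5 (1306850) and replicate 1 (1006925), the samples that also had the most Mapt. In shOpn3, replicate 4 had the least Mapt, with a sum of 462478 that only replicate 5 exceeded. Whether Mapt came from these cells was not tested. Of 8 magnocellular markers 7 were lower (Avp, Oxt, Pou3f2, Otp, Sim1, Trh and Gal). The sums over all 8, with the uncalled Scg2 included, were 77113 to 189798 in shControl and 35440 to 63656 in shOpn3. Of 8 microglial markers 7 were higher, with sums of 8425 to 12206 and 15666 to 31163. Of 7 astrocyte markers 3 were higher, with sums that overlapped, from 262413 to 346641 and from 309051 to 449407. No marker of these 4 lists was at 0 in all samples. Of 3 GABA neuron markers and 6 endothelial and blood markers 0 were called. Slc17a7, the vesicular glutamate transporter of cortical neurons, rose from a range of 56.0 to 380 to one of 556 to 1991 normalized counts (log2 fold change 2.88, limma adjusted p = 0.00285). The other glutamate neuron marker, Slc17a6, was not called (-0.18, limma adjusted p = 0.586), and the sums of both overlapped, from 6703 to 11893 in shControl and from 5966 to 12683 in shOpn3.

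**Figure D4:**
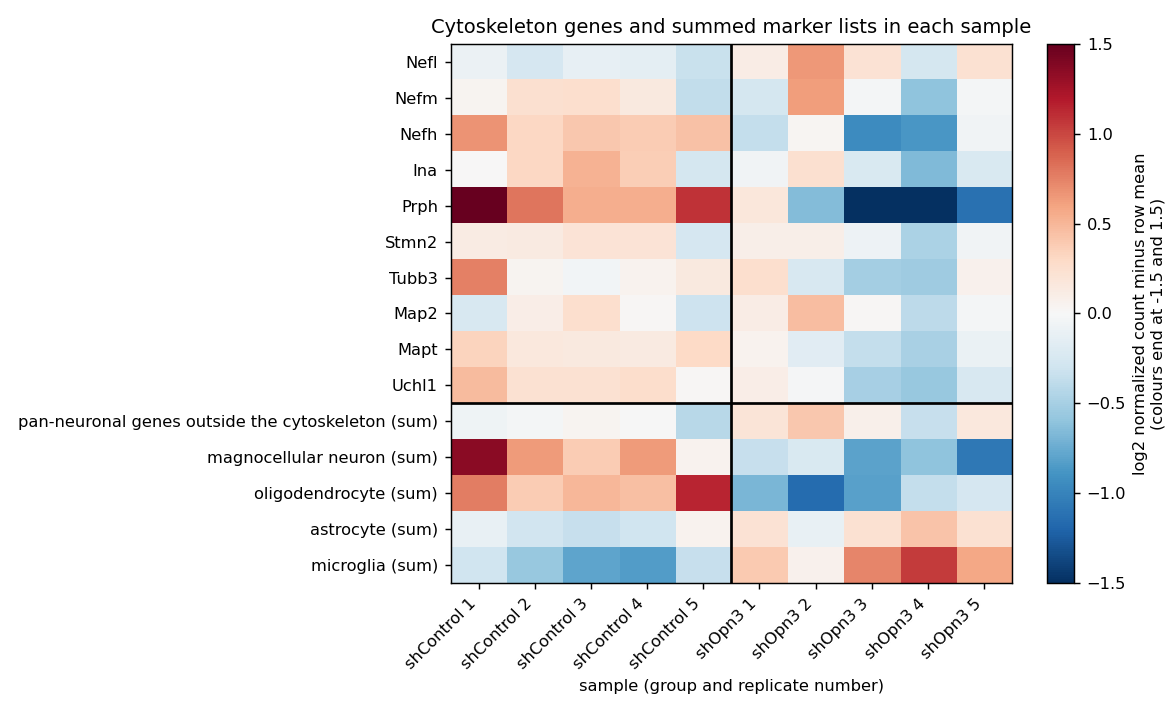
Each cell shows the log2 normalized count minus its row mean, for the 10 genes (above the line) and the summed marker lists (below it) in each sample (x axis, shControl left and shOpn3 right); colours end at -1.5 and 1.5. Prph and the magnocellular and oligodendrocyte sums are high in shControl and low in shOpn3, while the pan-neuronal sum is lowest in shControl 5 and shOpn3 4.

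Other genes of the same machinery were taken from 10 lists. Of 133 such genes tested besides the 10, 25 (18.8%) were called, 5 higher and 20 lower, the same share as among all genes (18.8%), with a median log2 fold change of -0.13. With the replicate block 53 of the 133 were called, where 30.3% of all genes tested were called in that fit, 15.1% higher and 15.2% lower. Stathmins were lower for 2 of 4 (Stmn1 and Stmn4), and Stmn1, a tubulin-binding protein of growing cells, changed by -0.61 ± 0.11 in log2 (SE; adjusted p = 0.00225, limma). Of 14 tubulins 4 were lower and 0 higher (median -0.18), and with the block 7 were lower and 1 higher. They were led by Tubb4a at -1.08 (SE 0.22, limma adjusted p = 0.00502), a beta-tubulin that oligodendrocytes also make in quantity. Without shOpn3 replicate 3, and without both samples of number 3 or of number 5, 1 tubulin was called, and without both samples of number 4, 2 were. Tubulin genes share long stretches of near-identical sequence, so their counts are uncertain.

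Of 25 microtubule-associated protein genes 4 were lower (Map7, Mapt, Dpysl3 and Map4) and 0 higher, with a median of -0.17, and with the block 9 were lower and 1 higher. The unblocked count was 2 without shOpn3 replicate 2 or 3 or both samples of number 2, and 1 without both of number 3. Map7, which recruits kinesin to microtubules, fell most, by 0.91 (SE 0.16, limma adjusted p = 0.00202). Of 16 genes for tubulin modification and severing 3 were lower and 1 higher: Fign, a microtubule-severing enzyme, changed by -1.10 (SE 0.23), and Vash2, which helps to remove the terminal tyrosine of alpha-tubulin, rose by 0.61 (SE 0.13; limma adjusted p = 0.00588 and 0.00790). Of 23 axonal transport motor genes 3 were lower and 0 higher (5 and 0 with the block, and 1 and 0 without both samples of number 3), with Bicd2, a dynein adaptor, at -0.44 (SE 0.09, limma adjusted p = 0.00614). Of 12 spectrin, ankyrin and initial segment genes 1 was lower, namely Nfasc at -0.50 (SE 0.13, limma adjusted p = 0.0155), a cell adhesion gene of the initial segment and nodes that oligodendrocytes express as well. Its call was lost without both samples of number 2 (0.0628) and with quantile normalization (0.0937). With the block 5 of these 12 genes were called, 3 lower and 2 higher.

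Of 11 genes for ubiquitin hydrolases and free ubiquitin, Uchl1 was the 1 called without the block, and with the block 6 were called, 5 lower and 1 higher. Of 11 regulators and partners of neurofilaments 2 were lower and 1 higher, and with the block 4 were lower and 2 higher. Without shControl replicate 1 or 2, shOpn3 replicate 5, or both samples of number 1, 3 or 5, 1 was called and 0 were lower, and without both samples of number 2 the count was 0. Trim2, a ubiquitin ligase that binds the light chain, changed by -0.27 (SE 0.08, limma adjusted p = 0.0263). Trim2 lost its call without shControl replicate 1, 2 or 3, shOpn3 replicate 4 or 5, or both samples of any number (0.0515 to 0.0926). Of 10 non-neuronal and nuclear intermediate filament genes 2 rose (Vim and Gfap) and 0 fell, and with the block 3 rose and 1 fell. Without both samples of number 3 or 4 the count was 1. Gfap, the filament of astrocytes, had 54392 ± 19325 and 115489 ± 32541 normalized counts (SD, 5 samples each), a log2 difference of 1.10 ± 0.26 (SE; adjusted p = 0.0104, limma). The call of Gfap was lost without both samples of number 3 or 4 (0.0629 and 0.0613).

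**Figure D5:**
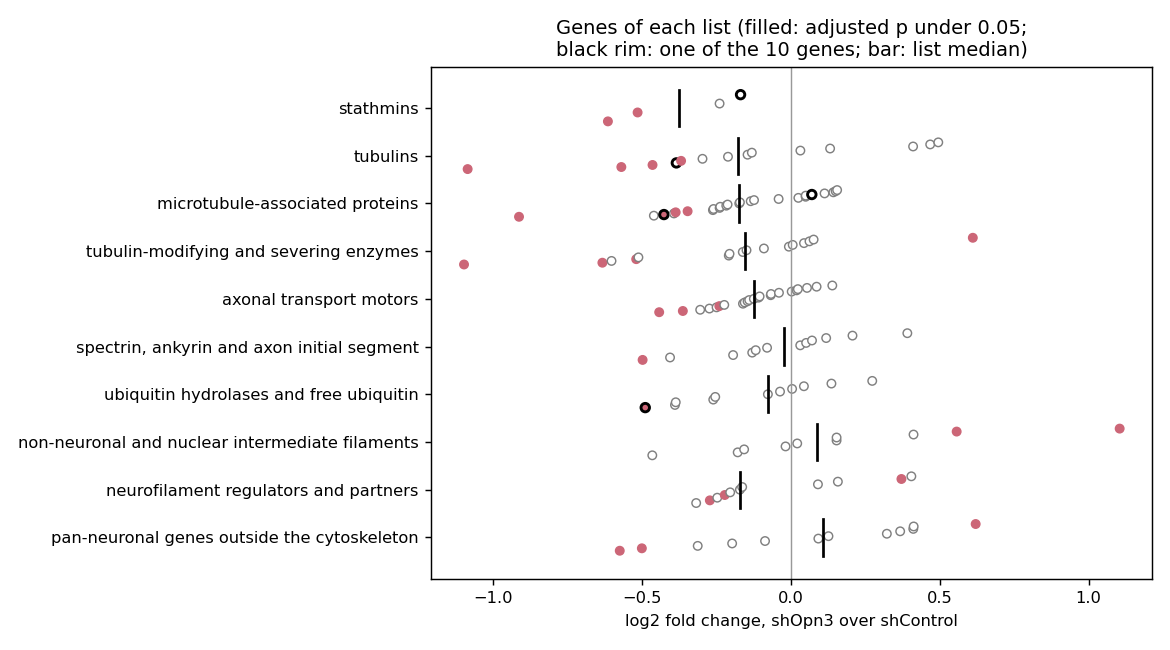
log2 fold change (x axis) of each tested gene in 10 lists (y axis); filled points have a limma adjusted p under 0.05, black rims mark genes of the 10 described, bars are list medians. Tubulins and microtubule-associated proteins hold 4 filled points each, all left of 0, and the non-neuronal filaments hold 2, both right of 0.

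Patterns over the 10 samples were compared by the mean absolute difference between log2 levels centred on each gene's own mean, with group difference and shared library included. Nearest to Nefl were Gap43, a growth cone gene, at 0.07, Vsnl1, a neuronal calcium sensor gene, at 0.07, and Robo2, an axon guidance receptor gene, at 0.07. Nefl's own mean deviation was 0.24. Nearest to Nefm were LOC100361008 (0.06), Fgf11 (0.08) and Rgs4 (0.11), and nearest to Nefh were NEWGENE_1310139 (0.16), Ccdc92 (0.17) and LOC690414 (0.18), where the own deviations were 0.26 and 0.45. Neither Nefm nor Nefh was among the 3 nearest of Nefl. The gene nearest to Prph was Otp, a transcription factor gene of magnocellular neurons, at 0.19 with an own deviation of 0.98, and the gene nearest to Stmn2 was its relative Stmn3, at 0.04. Among the 10 genes the closest pairs were Mapt with Uchl1 (0.13) and Stmn2 with Map2 (0.13). The own deviations of these genes were 0.22, 0.26, 0.17 and 0.19, in that order. Each was much nearer to a gene outside the 10, at 0.04 for Mapt and Stmn2 and 0.05 for Uchl1 and Map2.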

How the data were processed

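RNA sequencing of 10 supraoptic nucleus samples was deposited as 1 table. Per the submitters' processing notes, FastQC, STAR, featureCounts and DESeq2 were used. Versions, strand setting, genome build and annotation were not given in the sources used here, so overlapping or near-identical genes are uncertain. The deposited signal per gene was read counts divided by 1 size factor per sample, and whole reads were recovered for 100% of positive values (within 0.001 reads). Per the file headers, the authors' log2 fold change, Wald score and p-value stand in the same table.

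The main test was limma 3.58.1 (R 4.3.3) on log2(normalized count + 1) for genes with a mean of at least 10, with group as the only term, two-sided, and Benjamini-Hochberg adjustment over all genes (threshold 0.05). Alternatives covered pseudocounts, filters, scalings, edgeR 4.0.16, DESeq2 1.42.0, voom with sample weights, a replicate block, and leaving out samples. The scripts were tested on simulated data. Same-numbered samples deviated together in all 5 pairs (r 0.12 to 0.44), where 20 unlike-numbered pairs had a median of -0.21 (-0.45 to 0.36), some above number 4. The labels' protocols place both viruses in the same rats, but no label used here ties equal numbers to 1 rat. The numbers were taken to pair the samples from these correlations. The main test ignores this pairing, and among the fits over all genes only those with the replicate block use it. No 2 libraries held identical values. P-values measure the spread between these samples.

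The members and lists were chosen with earlier results of these data known. All members are named, and of each list the largest rise and fall that passed the test, except for an item that is not reported here. For likeness, the 3 nearest genes of each neurofilament chain are named.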

Additional observations from a re-analysis of the deposited data

Results flagged for a closer look

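Among 50 group values examined (the 10 genes, Opn3, Avp, Oxt and the named genes of the lists, over both groups), 3 held 1 library set apart by a gap that took up an unusual share of the 5 libraries' range, while 2.5 would arise by chance at 1 in 20. For Tubb3 this was shControl replicate 1, whose 9440.1 normalized counts compare with 6163 in the next highest library. The same library had 56716 normalized counts of Oxt, and the next highest had 21354. For Stmn2, shControl replicate 5 was low at 12191 normalized counts, and the next lowest library had 15786.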

How the results depend on the processing

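Over 27 alternative fits Nefh and Prph kept their direction and their call, and so did Opn3, with a log2 fold change from -2.17 to -1.60. The count of members called stayed between 3 and 6 except without both samples of replicate number 3, where it was 2, and it ranged from 2 to 4 when samples were left out. The count over all genes was 4726 with the replicate block, 4777 in edgeR with that block, 5085 in voom with sample weights and 1672 when scaled to the pan-neuronal genes, against 2940, and it ranged from 1604 to 3056 when samples were left out. The count over the lists, members included, was 56, 58 and 54 in the first 3 of these fits, against 27, and from 14 to 32 when samples were left out. The block changed no other call of a member than that of Tubb3. Nefl was called higher in DESeq2, with quantile normalization and in voom with sample weights, and voom also called Ina lower. Map2 turned to -0.052 in voom with sample weights and to -0.12 when scaled to the pan-neuronal genes, and with samples left out it ranged from -0.035 to 0.19, below 0 without shOpn3 replicate 2, number 1 or number 2. Nefm ranged from -0.29 to 0.038 with samples left out, above 0 without shOpn3 replicate 4 or number 4. The cause was not tested.

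A sign-flip test over the 5 pairs, the paired form for the ratios, kept the log2 differences of -0.50 (Nefm to Nefl), -1.26 (Nefh to Nefl), -0.75 (Ina to Nefl), -2.27 (Prph to Nefl) and -0.50 (Mapt to Map2). This exact permutation test cannot pass the threshold with 5 pairs (p = 0.0625, adjusted p = 0.0750 for each), so the lost calls say nothing about stability. With samples left out the log2 differences ranged from -0.57 to -0.44, -1.35 to -1.13, -0.88 to -0.67, -2.57 to -2.09 and -0.59 to -0.40 for these 5 ratios and from 0.08 to 0.30 for Stmn2 to Tubb3. With 4 samples against 4 no exact p can go below 0.0286, which limits those tests.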

Other observations

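Of 6 genes known from axon injury, 3 rose and 0 fell, where 10.4% of all genes tested were called higher and 8.48% lower. The summed level of these 6 genes ranged from 10502 to 13127 normalized counts in shControl and from 11521 to 19365 in shOpn3. Their part in the values of the filament genes was not tested. Atf3 rose from a range of 40.8 to 60.1 to one of 247 to 450 normalized counts (log2 fold change 2.75), Sprr1a, Sox11 and Atf3 were the 3 called, and Jun had a log2 fold change of -0.01 (limma adjusted p = 0.974). Gap43, the gene nearest to Nefl in its pattern, had 7822 to 9669 normalized counts in shControl and 8448 to 16327 in shOpn3 (log2 fold change 0.41, limma adjusted p = 0.0628). Gap43 thus made up most of the summed level, and it is also in the pan-neuronal list used for scaling. Among the pan-neuronal genes, Eno2 had only 10.3 normalized counts in shControl and 12.9 in shOpn3 on average, where the other 11 had means of at least 434.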
